A study of Sus scrofa with 20 samples.

Results

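The ileal genes of bile acid uptake were followed through the mucosa of 20 pigs. Taken were all probesets with values whose platform symbol was FABP6 or SLC10A2, and those of SLC51A, SLC51B, NR1H4 and NR0B2 where the symbol had values. This left 4 probesets of 3 genes (1 of FABP6, 2 of SLC10A2 and 1 of NR0B2) among the 25092 probesets with values, on an array of 47845 rows. NR1H4, SLC51A and SLC51B are not analysed here. The pigs were a Large White x Landrace cross and were ranked by residual feed intake (RFI), the feed a pig eats beyond what its growth and body mass predict. Low RFI, labelled as high feed efficiency, and high RFI, labelled as low feed efficiency, were each represented by 10 pigs, with 1 snowball array per pig. Each of 5 sows (1406, 1410, 1411, 1417 and 1435) gave 4 pigs, a female and a male of low RFI and a female and a male of high RFI, so that 10 pairs share litter and sex. The pigs were chosen as extremes within litter and sex, the labels name no agent, and mucosa was taken close to the junction with the caecum. The sow also stands for the pen, so litter and pen cannot be told apart.

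Bile acids are made in the liver, are released into the gut with bile, and are recovered almost wholly in the last stretch of the small intestine. SLC10A2 draws them, together with sodium, through the brush border of the ileal enterocyte, FABP6 binds them in the cytosol, and the dimer of SLC51A and SLC51B passes them to the portal blood. In other mammals bile acids in the enterocyte activate the nuclear receptor NR1H4 (FXR), which raises FABP6, both SLC51 genes and the corepressor NR0B2 (SHP), and NR0B2 in turn dampens the transcription of other bile acid genes.

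No difference of the uptake genes between the RFI groups was detectable with these pigs. FABP6 gave one of the highest signals of the mucosa in all 20 pigs and varied little, with a log2 value of 13.27 ± 0.15 (SD, n = 10) in low RFI and 13.20 ± 0.15 (SD, n = 10) in high RFI pigs. SLC10A2 averaged 11.81 ± 0.63 in low RFI and 11.94 ± 0.26 in high RFI pigs, and NR0B2 averaged 5.30 ± 0.64 and 5.23 ± 0.47 in low and high RFI pigs (SD, n = 10 each). None of the 3 genes passed an unadjusted p under 0.05 in limma, which took the sow as fixed. This threshold was passed by 893 (4.03%) of the 22136 tested probesets, and none passed after adjustment. The values are normalised log2 signals, so a difference of 1 is a doubling, and in whole mucosa fewer enterocytes and less RNA per enterocyte cannot be told apart.

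The tissue label was checked against markers. Among the 8 genes of absorptive enterocytes with values the mean log2 value was 12.13 for VIL1, the villin of the microvilli, 12.40 for the keratin KRT20 and 12.52 for SLC5A1, the sodium glucose carrier, 11.96 for MEP1A and 11.098 for SLC15A1, and 8.86 for FABP2, 8.15 for APOA4 and 6.99 for APOA1. CUBN, the ileal receptor of intrinsic factor with vitamin B12, averaged 11.77, its partner AMN 8.14 and LRP2, a relative of the LDL receptor, 4.16. The hepatocyte genes ALB and SLC10A1 averaged 2.46 and 3.32, and HOXB13, a gene of the hindgut, averaged 3.80. Array medians lay between 4.98 and 5.07, and each array correlated on average at 0.958 to 0.969 with the others. Of the 5 tested smooth muscle markers 1, the actin ACTA2, was lower in low RFI pigs (3.15 ± 0.58 in low RFI, 3.77 ± 0.59 in high RFI pigs, limma p = 0.0254, adjusted p = 1.0). The differences of the others, none past the threshold, were 0.14 for DES, 0.08 for MYLK, -0.07 for MYH11 and -0.21 for LMOD1. Of the 2 tested fibroblast and matrix markers, the collagen COL1A1 was higher in low RFI pigs (3.61 ± 0.51 in low RFI, 3.22 ± 0.54 in high RFI pigs, limma p = 0.0166, adjusted p = 1.0) and COL3A1 differed by 0.36 (p = 0.272). ACTA2, COL1A1 and the tested COL3A1 probeset averaged 3.46, 3.41 and 2.67, below the array medians. COL1A2 (mean 6.87), DCN (6.43), LUM (6.93) and a stronger COL3A1 probeset (7.17) were removed by the SD filter. The mean over all 5 matrix genes ranged from 5.17 to 7.69 in low RFI and from 4.75 to 7.69 in high RFI pigs. ANPEP, SI and ALPI of the enterocyte markers are not analysed here.

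SLC10A2, the apical sodium-dependent bile acid transporter at the entry of the pathway, lies on chromosome 11 of Sscrofa11.1 (71328801 to 71348779). Of its 2 probesets with values, probeset 1 passed the filter on mean and SD. It measured 10.54 at the lowest, 12.001 at the median and 12.50 at the highest in low RFI pigs, and 11.40, 11.95 and 12.25 in high RFI pigs. All high RFI pigs lay within the range of the low RFI pigs, which reached both farther down and farther up. The difference of low minus high RFI was -0.13 (SE 0.18, 95% interval -0.50 to 0.24, limma p = 0.476, adjusted p = 1.0). As a ratio of low over high RFI this was 0.914, with an interval of 0.706 to 1.18.

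The lowest SLC10A2 value of probeset 1 was that of a low RFI pig. Low RFI replicate 5, a female of sow 1406, measured 10.54, and the next lowest low RFI pig, replicate 4, a male of sow 1411, measured 11.11. Without replicate 5 the SD of the low RFI pigs was 0.473, against 0.262 in high RFI pigs (chosen after seeing the data). The difference without it was -0.00 (p = 0.985), and without both pigs of its litter-by-sex pair it was -0.00 (p = 0.995, chosen after seeing the data). FABP6 in this pig was 13.35, near the low RFI median of 13.34, and its array correlated on average at 0.962 with the others. Its MEP1A signal was 11.33, against at least 11.52 in the other 19 pigs, and its SLC5A1 signal was 12.11, against at least 12.27 in the others. For the other 6 enterocyte markers with values it was not the lowest pig: KRT20 was 12.48 (mean of all pigs 12.40), VIL1 12.08 (12.13), SLC15A1 10.40 (11.098), FABP2 8.27 (8.86), APOA4 7.21 (8.15) and APOA1 6.36 (6.99). Its SLC15A1 signal was close to that of the lowest other pig, 10.32. Its mean over the fibroblast and matrix markers was 7.69, at the top of the low RFI range of 5.17 to 7.69 (4.75 to 7.69 in high RFI pigs). Its smooth muscle mean was 5.93, also at the top of the low RFI range of 4.89 to 5.93 (5.04 to 6.04 in high RFI pigs). Its enterocyte mean was 10.03, near the low end of the low RFI range of 9.82 to 10.93. Of all pigs only low RFI replicate 1 (9.82) and high RFI replicate 1 (9.95) were lower. Among low RFI pigs, only replicate 3 had higher follicle B cell and goblet means, and only replicate 1 had a lower T cell mean. Its epithelial and crypt means also lay inside the low RFI ranges. The part of these markers in its SLC10A2 value was not tested.

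SLC10A2 probeset 2 was left out by the filter, since its SD in low RFI pigs was 0.834 and the limit there was 0.825. In the fit without the filter it measured 8.86, 11.00 and 11.69 at the lowest, median and highest in low RFI pigs, and 10.33, 11.02 and 11.60 in high RFI pigs. The same pig, low RFI replicate 5, gave the low end. Low minus high RFI was -0.17 (SE 0.23, 95% interval -0.66 to 0.32, limma p = 0.469, against 3.99% of the 25092 probesets called without the filter), and without replicate 5 it was 0.03 (p = 0.869). The 2 probesets tracked each other closely over the 20 pigs (r = 0.95, rho = 0.95, permutation p = 1e-05 for each, the smallest that 100000 permutations can give). With the litter means taken out r was 0.96, and without the 2 pigs farthest from the median of probeset 1 it was 0.93.

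FABP6, the ileal bile acid binding protein, lies on chromosome 16 (63297594 to 63303675) and had 1 probeset. Its values were 12.97, 13.34 and 13.42 at the lowest, median and highest in low RFI pigs, and 13.02, 13.20 and 13.39 in high RFI pigs. The groups overlapped, and the lowest and the highest pig of all were both of low RFI. Low minus high RFI was 0.07 (SE 0.08, limma p = 0.428, adjusted p = 1.0), with a 95% interval of -0.11 to 0.24. As a ratio of signals this is 0.929 to 1.18 around 1.05. Whether signals so near the top of the arrays follow the RNA amount in proportion was not tested.

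**Figure D1:**
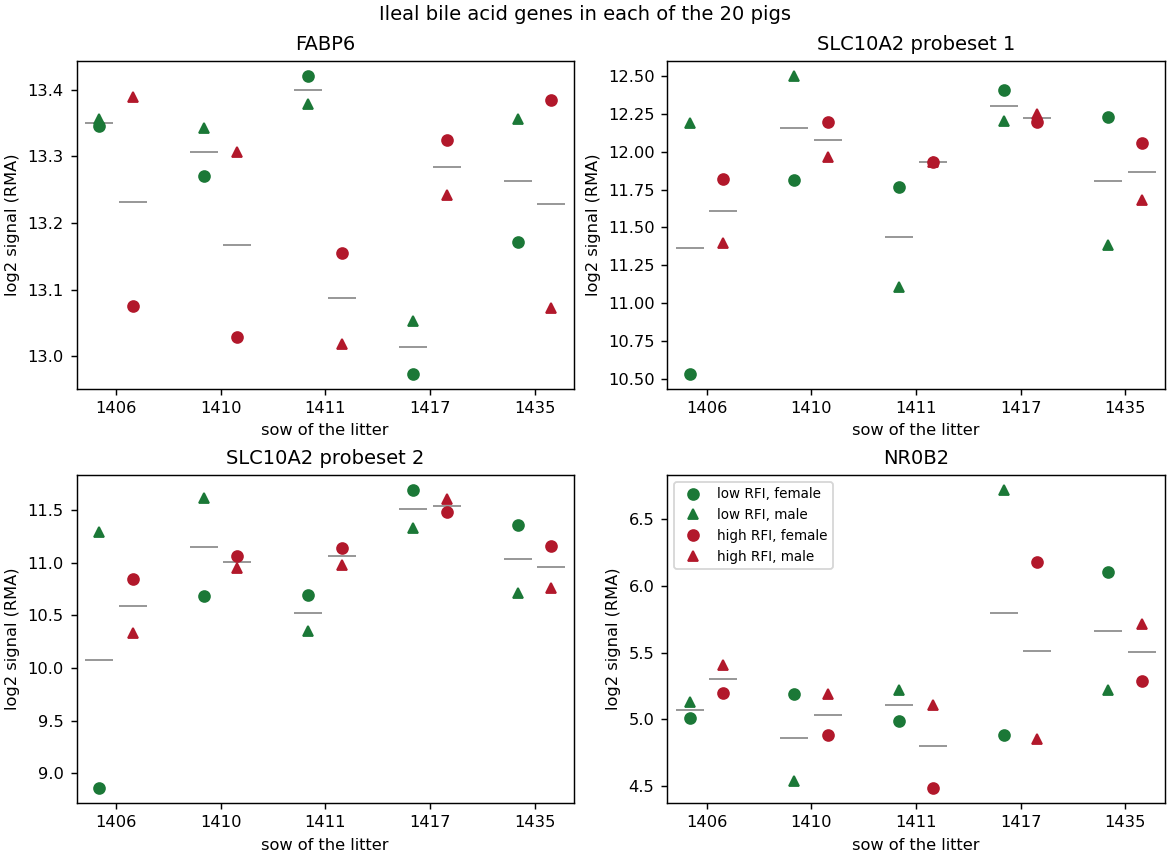
Normalised log2 signal (vertical axis) of FABP6, both SLC10A2 probesets and NR0B2 in each of the 20 pigs, by sow (horizontal axis). Green points are low and red points high RFI pigs, circles females and triangles males, and grey lines are the means of the pigs of an RFI group within a litter. The low RFI female of sow 1406 is the lowest pig in both SLC10A2 probesets (10.54 and 8.86), and all FABP6 values lie between 12.97 and 13.42.

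On every array FABP6 ranked between 8 and 21 of 25092 probesets, where 1 is the highest signal. Its median rank was 12.5 in low RFI and 13.5 in high RFI pigs. Only 12 probesets had a higher mean, and just 2 of these carry a symbol, CFL1, which encodes cofilin of the actin skeleton, and LRP1B, a lipoprotein receptor relative. FABP6 lay 0.21 to 0.70 below the highest value of its array. SLC10A2 probeset 1 ranked between 43 and 283 (median 74 in low RFI and 81.5 in high RFI pigs), and probeset 2 between 99 and 1149. With 1 probeset per gene, over 10567 genes, the median rank was 3 for FABP6 and 31 for SLC10A2. These are ranks of signal and not of transcript number, because probes differ in affinity.

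The SD of FABP6 over all pigs was 0.149, against a median SD of 0.286 over all probesets, and 4.58% of the probesets varied less. Strong signals varied less in general: among the 100 probesets of highest mean the median SD was 0.186 (range 0.040 to 1.16), and 39 of them varied as little as FABP6 or less. SLC10A2 probeset 1, also near the top of the arrays, stood at the 81.0th percentile of SD.

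NR0B2, the small heterodimer partner that represses bile acid genes downstream of NR1H4, lies on chromosome 6 (84225670 to 84228156). Its values were 4.54, 5.16 and 6.72 at the lowest, median and highest in low RFI pigs, and 4.49, 5.19 and 6.18 in high RFI pigs, so that the groups overlapped. Its rank lay between 5639 and 14750, near the middle of the array. Low minus high RFI was 0.07 (SE 0.21, 95% interval -0.37 to 0.51, limma p = 0.746, adjusted p = 1.0). The sign of this small difference depended on single pigs: it was -0.08 without low RFI replicate 7, -0.04 without high RFI replicate 7 and -0.00 without low RFI replicate 10.

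The 3 highest NR0B2 values came from 2 litters. They were 6.72 in low RFI replicate 7, a male of sow 1417, 6.18 in high RFI replicate 10, a female of the same sow, and 6.11 in low RFI replicate 10, a female of sow 1435. The other pigs of sow 1417 measured 4.88 (low RFI female) and 4.85 (high RFI male). The litter of sow 1417 therefore held both the largest positive and the largest negative pair difference, 1.86 in its males and -1.30 in its females.

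Pair by pair, no gene moved one way. FABP6 was higher in the low RFI pig in 6 of 10 pairs, SLC10A2 in 4 of 10 with either probeset, and NR0B2 in 5 of 10. Pair differences of FABP6 ran from -0.35 to 0.36 with a median of 0.14. Those of SLC10A2 probeset 1 ran from -1.28 in the females to 0.79 in the males of the same sow, 1406, with a median of -0.11.

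**Figure D2:**
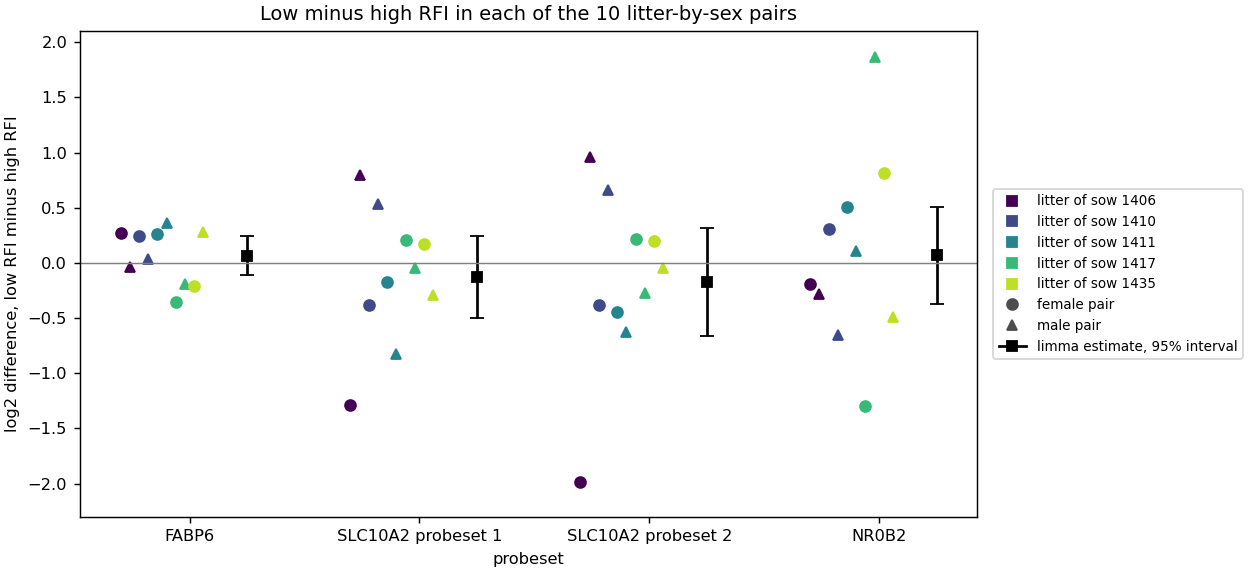
Log2 difference of low minus high RFI (vertical axis) within each of the 10 litter-by-sex pairs for the 4 probesets (horizontal axis), with the colour giving the litter and the shape the sex. Black squares are the limma estimates with 95% intervals, and all 4 intervals include 0. FABP6 pairs lie within -0.35 to 0.36, whereas NR0B2 pairs of sow 1417 lie at 1.86 and -1.30.

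By litter, the means of SLC10A2 probeset 1 were spread more widely than those of FABP6. Its single values were too (SD over all pigs 0.476 against 0.149), and the litter differences of the 2 genes were not compared in a test. The mean of SLC10A2 probeset 1 was 11.49 ± 0.71 (SD, n = 4) in the litter of sow 1406, 11.68 ± 0.39 in that of 1411, 11.84 ± 0.38 in that of 1435, 12.12 ± 0.30 in that of 1410 and 12.26 ± 0.10 in that of 1417. Litter took 36.9% of its variation, yet the limma F test of the litters gave p = 0.0763 (adjusted p = 0.446), above a threshold that 12.9% of all tested probesets passed. Across the alternatives this p moved both ways: it was 0.0249 with the mean of the enterocyte markers as covariate and 0.222 with that of smooth muscle, 0.243 without the litter of 1417, 0.150 without low RFI replicate 8, 0.145 without high RFI replicate 1, and 0.00842 without low RFI replicate 2, a male of sow 1406 whose 12.19 was the highest of its litter. Probeset 2 had its lowest and highest litter means in the same litters, 10.33 in that of 1406 and 11.53 in that of 1417 (limma p = 0.0582, adjusted p = 0.420 without the filter, where 12.5% passed).

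FABP6 litter means lay between 13.15 in the litter of sow 1417 and 13.29 in that of 1406, and litter took 10.3% of its variation (limma p = 0.863, adjusted p = 0.952). Its RFI difference did vary in sign between litters. In the litter of sow 1411 both low RFI pigs (13.42 and 13.38) lay above both high RFI pigs (13.15 and 13.02), and in the litter of 1417 both low RFI pigs (12.97 and 13.05) lay below both high RFI pigs (13.33 and 13.24). The mean differences were 0.31 and -0.27 there, and 0.12, 0.14 and 0.03 in the litters of 1406, 1410 and 1435. The interaction of RFI and litter did not pass (limma F = 1.48, p = 0.261, where 4.14% of probesets passed), nor did it for SLC10A2 probeset 1 (p = 0.856) or NR0B2 (p = 0.907). NR0B2 litter means ran from 4.95 in the litters of 1410 and 1411 to 5.66 in that of 1417 (limma p = 0.126, adjusted p = 0.523).

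Sex made no detectable difference. SLC10A2 probeset 1 averaged 11.89 ± 0.52 in females and 11.86 ± 0.45 in males (SD, n = 10 each), a difference of 0.03 (SE 0.18, limma p = 0.853, where 7.43% of probesets passed). FABP6 averaged 13.22 ± 0.16 in females and 13.25 ± 0.15 in males, a difference of -0.04 (SE 0.08, p = 0.669), and for NR0B2 the difference was -0.09 (p = 0.684). The RFI difference of SLC10A2 probeset 1 was -0.29 in females, which hold low RFI replicate 5, and 0.03 in males. That interaction gave p = 0.391 (SE 0.37), with 6.06% of probesets past the threshold. It gave p = 0.783 for FABP6 and p = 0.861 for NR0B2.

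Uptake and binding did not run in parallel over the pigs. Between FABP6 and SLC10A2 r was -0.38 (permutation p = 0.104, adjusted p = 0.311 over 3 relations) and rho was -0.43 (permutation p = 0.0605). Without the 2 pigs farthest from the FABP6 median r was -0.31, a choice that kept low RFI replicate 5 with its lowest SLC10A2 value. With litter means taken out r was -0.27 (permutation p = 0.293), and it was -0.51 within low RFI and -0.08 within high RFI pigs. NR0B2 showed r = -0.12 with FABP6 (rho = 0.13, permutation p = 0.605 and 0.59) and r = 0.06 with SLC10A2 (rho = -0.21, permutation p = 0.797 and 0.378), both with an adjusted p of 0.797.

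FABP6 and SLC10A2 were also set against 8 enterocyte markers, 16 relations chosen after the data were seen. SLC10A2 rose with MEP1A, a metalloprotease of the brush border (r = 0.74, permutation p = 0.00026, adjusted p = 0.00208; rho = 0.70). This held without the 2 pigs farthest from the MEP1A median (r = 0.53, permutation p = 0.0224), and within low RFI (0.78) and high RFI pigs (0.63). The p of 0.00026 came from permuting pigs across litters, although pigs of a litter are not independent. Within litters r was 0.64, with a larger p of 0.00861 from permutation within litters (not adjusted). FABP6 ran the other way with the same gene (r = -0.65, permutation p = 0.00181, adjusted p = 0.00724; rho = -0.74). Without the 2 farthest pigs that r was -0.64, within litters -0.80 (permutation p = 0.00042), within low RFI -0.66 and within high RFI pigs -0.66.

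The carriers of glucose and of peptides behaved alike against SLC10A2. Its r was 0.65 with SLC5A1 (permutation p = 0.00158, adjusted p = 0.00724; rho = 0.49) and 0.57 with SLC15A1 (permutation p = 0.00608, adjusted p = 0.0195; rho = 0.45). Within litters both were 0.72 (permutation p = 0.00695 and 0.00104). Both rested in part on the extreme pigs, since without the 2 pigs farthest from the median of the carrier they fell to 0.38 (permutation p = 0.116 and 0.118). They were 0.83 and 0.82 within low RFI and 0.11 and 0.07 within high RFI pigs, a difference that was not tested. FABP6 showed r = -0.41 with SLC5A1 (adjusted permutation p = 0.164) and -0.56 with SLC15A1 (permutation p = 0.0109, adjusted p = 0.029, rho = -0.48). With SLC15A1 it was -0.49 without the 2 farthest pigs and -0.58 within litters (permutation p = 0.0169).

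With VIL1, FABP6 rose (r = 0.75, permutation p = 0.00019, adjusted p = 0.00208; rho = 0.80). This r was 0.76 without the 2 pigs farthest from the VIL1 median and also within litters (permutation p = 0.00055 within litters), 0.64 within low RFI and 0.82 within high RFI pigs. VIL1 had 3 tested probesets, and the lowest r of these with FABP6 was 0.05. SLC10A2 showed r = 0.12 with VIL1 (adjusted permutation p = 0.652). APOA4, APOA1, FABP2 and KRT20 passed with neither gene after adjustment.

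**Figure D3:**
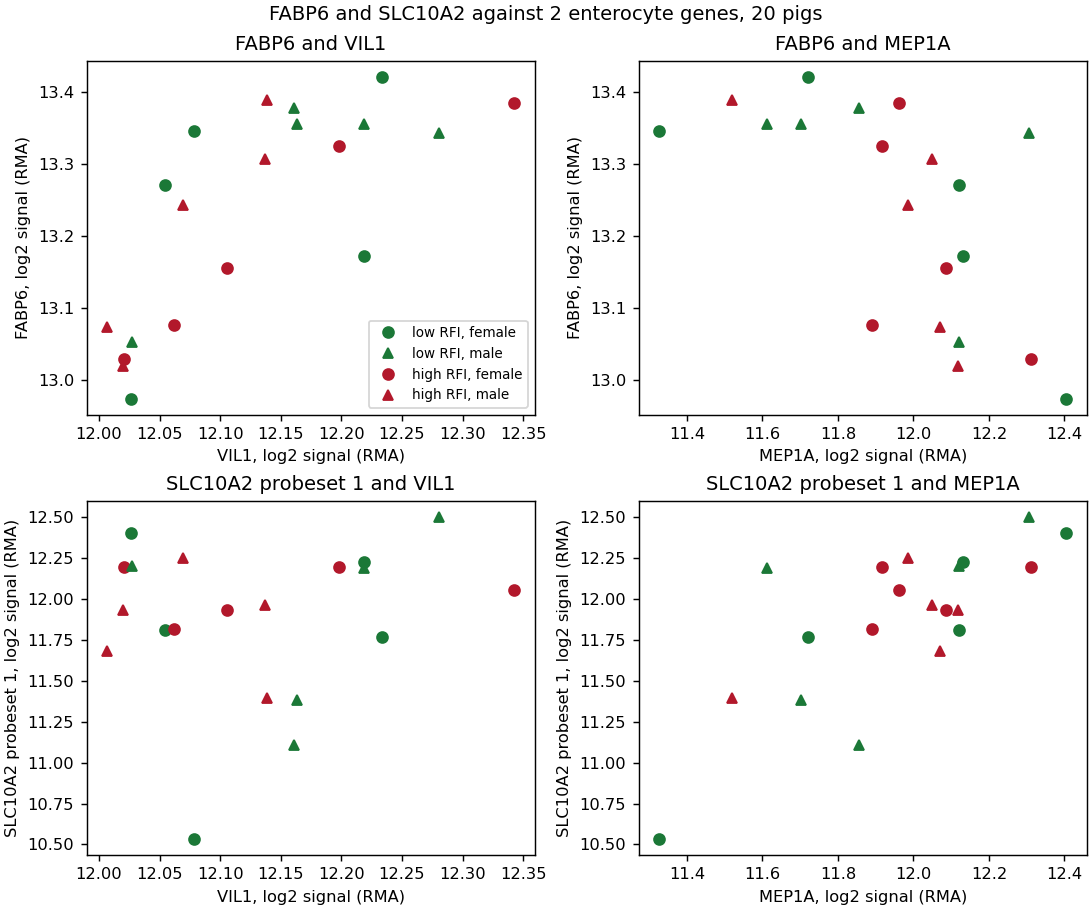
Log2 signals of FABP6 (upper row) and SLC10A2 probeset 1 (lower row) on the vertical axes against VIL1 (left) and MEP1A (right) on the horizontal axes in 20 pigs, with low RFI in green, high RFI in red, females as circles and males as triangles. FABP6 rises with VIL1 (r = 0.75) and falls with MEP1A (r = -0.65), and SLC10A2 rises with MEP1A (r = 0.74) and shows no clear slope with VIL1 (r = 0.12).

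Against mean levels of 8 marker lists (24 relations, also chosen after seeing the data), no member passed after adjustment. The smallest adjusted permutation p was 0.125, shared by FABP6 with follicle B cell markers (r = 0.54), NR0B2 with follicle B cell markers (r = -0.58) and NR0B2 with T cell markers (r = 0.55). SLC10A2 showed r = 0.46 with the enterocyte mean (adjusted permutation p = 0.2), and FABP6 r = 0.46 with the epithelial mean (adjusted permutation p = 0.2). The enterocyte mean itself ranged from 9.82 to 10.93 in low RFI and from 9.95 to 10.99 in high RFI pigs. None of its 7 tested genes passed between the RFI groups.

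The genes most like FABP6 and SLC10A2 were ranked by Pearson r over the 20 arrays among 9757 other genes, as a description without test. Extremes of so many comparisons can be large by chance, and no chance level was computed. For FABP6 they were HTT (r = 0.77), which encodes huntingtin, VIL1 (0.75), PIK3CD, a lipid kinase of leukocytes (0.74), PRRT1 (0.73, with 4 probesets down to 0.01) and PCBP1, an RNA-binding protein (0.73). The most opposed was CYP3A29, a pig cytochrome of the CYP3A family that handles steroids and drugs (r = -0.79, within litters -0.85). Its 4 probesets all lay between -0.79 and -0.77 with FABP6. TMEM59 (-0.74) and RTN3 (-0.73) followed, and the 14 probesets of RTN3 reached up to 0.28.

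For SLC10A2 the most alike were PSMC2, an ATPase of the proteasome (r = 0.84, within litters 0.86), VRK3 (0.79) and RHOU, a small GTPase (0.79). LCLAT1, an acyltransferase of cardiolipin (0.78, with 3 probesets down to 0.42), and FZD5, a WNT receptor (0.78, with 3 probesets down to 0.24), followed. ADAMTSL3, ERG and CBL were the most opposed, each at -0.76, but other probesets of these genes reached 0.32, 0.03 and -0.13. ADAMTSL3 had a mean of only 2.42. CYP3A29 showed r = 0.37 with SLC10A2, opposite in sign to its r with FABP6, and RHOU showed -0.61 with FABP6.

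A wider set of 94 genes of bile acid and sterol handling was taken from 9 lists. Of these 51 had values and 48 were tested, and 0 rose and 0 fell at an unadjusted limma p under 0.05. Over all 22136 tested probesets 319 (1.44%) were higher and 574 (2.59%) lower in low RFI pigs. The median difference was 0.02 over the 48 genes, of which 30 were positive, and -0.01 over all probesets, of which 10561 were positive. The smallest p was that of GATA4, a transcription factor that in mice holds SLC10A2 down in the proximal gut, with 4.43 ± 0.18 in low RFI and 4.28 ± 0.14 in high RFI pigs (limma p = 0.0910).

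Among 8 tested transport genes 4 were positive. ABCC2, an export pump of conjugates at the apical membrane, averaged 8.80 ± 0.48 in low RFI and 9.06 ± 0.35 in high RFI pigs (difference -0.27, limma p = 0.143). All 5 sensing genes had positive differences, none past the threshold. They included RXRA, the partner of NR1H4, and NR1I2, a receptor of bile acids and drugs, each with a difference of 0.02 (p = 0.812 and 0.872). Of 10 transcription factors 6 were positive, among them HNF4A, a regulator of enterocyte genes (0.02, p = 0.748). ABCC3, VDR, FGF19 and GPBAR1 are not analysed here.

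Of the 7 synthesis genes 4 were positive. CYP27A1, the sterol 27-hydroxylase, differed by -0.19 (p = 0.430), and SLC10A1, the hepatocyte relative of SLC10A2, averaged 3.34 in low RFI and 3.30 in high RFI pigs. NPC1L1, the cholesterol importer of the brush border, belonged to the sterol list, where 5 of 7 were positive, and differed by 0.07 (p = 0.524). CUBN averaged 11.78 in low RFI and 11.77 in high RFI pigs, and its partner AMN differed by -0.00 (p = 0.970). FABP1, the liver-type binding protein, had 1 tested probeset of very low signal (1.77 in low RFI, 2.04 in high RFI pigs, p = 0.163), while its strong probeset (mean 9.89) and that of FABP2 (mean 8.86) were removed by the SD filter.

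**Figure D4:**
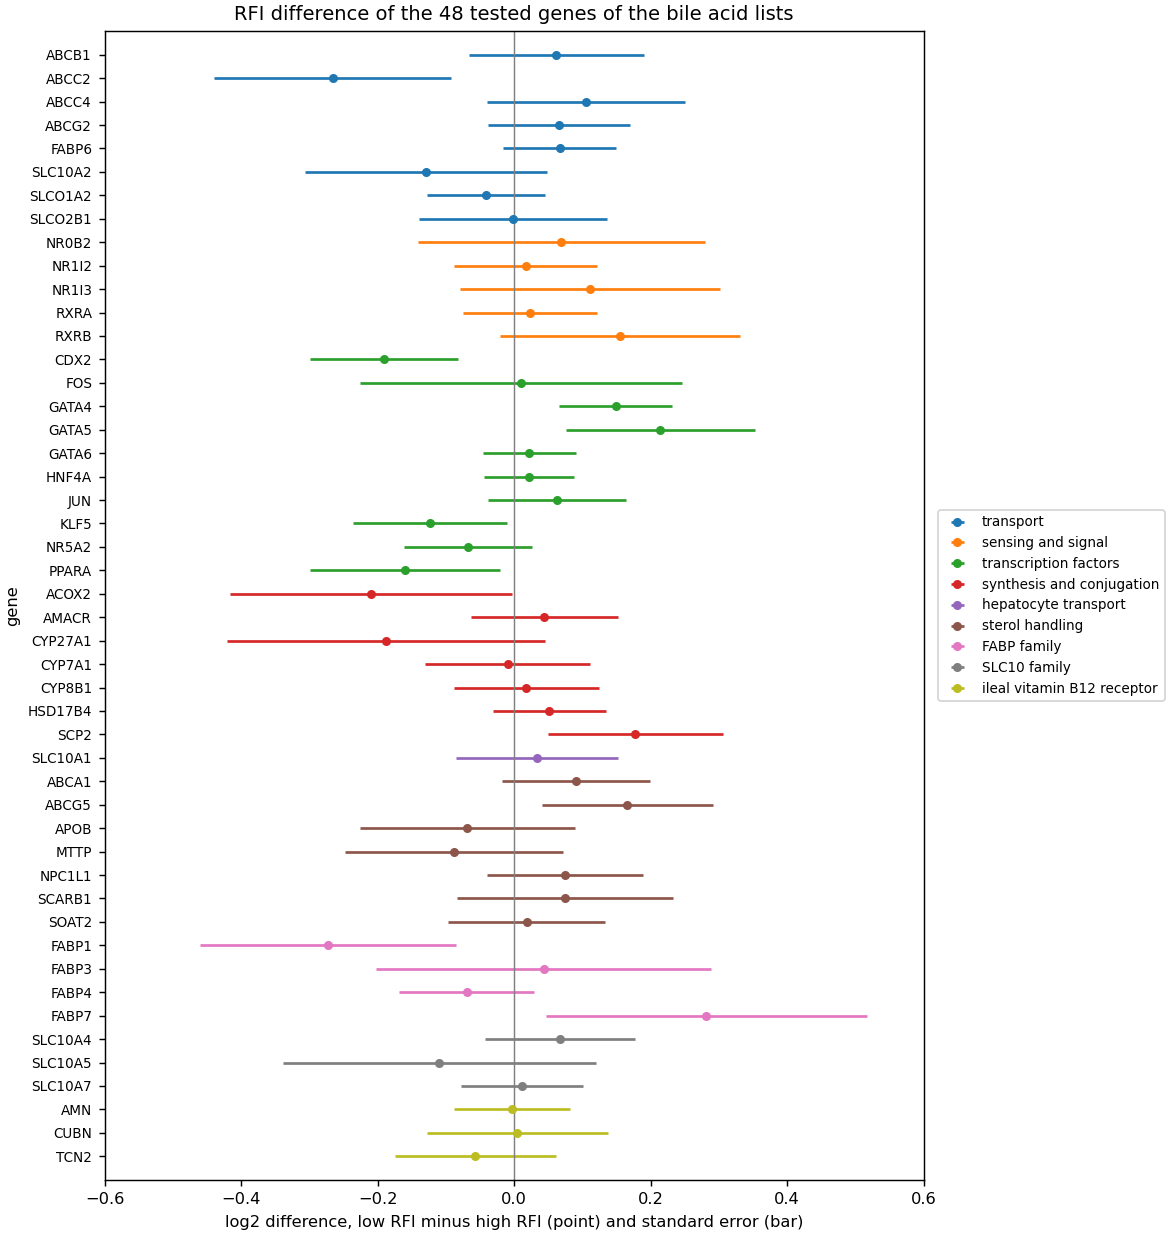
Log2 difference of low minus high RFI (horizontal axis) with its standard error for the 48 tested genes of the bile acid and sterol lists (vertical axis), coloured by list. GATA4 (0.15) has the smallest p, and no gene passed an unadjusted p under 0.05.

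At an unadjusted limma p under 0.05, 9 of the 48 genes (18.8%) differed between litters, not far from the 12.9% of all tested probesets, and 1 passed after adjustment, as 21 of all tested probesets (0.0949%) did. That gene was SLCO2B1, an organic anion carrier, with litter means from 5.62 (sow 1417) to 7.01 (sow 1406) and an adjusted p of 0.0353. The efflux pump ABCB1 (9.90 in the litter of 1406, 10.92 in that of 1417) and the sterol exporter ABCG5 (7.84 and 8.83 in the same litters) had the next smallest p of the lists and adjusted p of 0.10 and 0.0768. These 3 genes were named after their values were seen.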

How the data were processed

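Ileal mucosa of 10 low RFI and 10 high RFI pigs was analysed, with groups, sex and sow taken from the labels. The authors deposited log2 signals. They assigned the probes of the snowball array to probesets on Sscrofa11.1 and applied the robust multichip average, while the submitters' processing notes name GCOS 1.1.1. This normalization makes arrays comparable within a probeset. The methods' filters are not visible in the values and were applied here, leaving out probesets with a mean under 1.75 or an SD above 0.825 within low RFI or above 0.808 within high RFI pigs (2956 of 25092 removed, 22136 tested). Of the probesets with values, 16361 had 1 symbol in the platform annotation and 8731 lacked one. RefSeq synonyms replaced 237 symbols, and coordinates are those of RefSeq on Sscrofa11.1. This annotation can be older than the layout of the authors. The position of the probes within the genes is not given in the sources used here.

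limma 3.58.1 (R 4.3.3) was fitted to all tested probesets with RFI group and sow (14 residual and 4.42 prior degrees of freedom), with adjusted p after Benjamini and Hochberg over all of them and an unadjusted threshold of 0.05 as in the methods. Sex, litter and both interactions were fitted alike. The slaughter batch of the study's model is not in the labels and was left out. Correlations had two-sided permutation tests (100000 permutations, within litters where litter means were taken out). Python 3.11.15, numpy 2.4.6 and matplotlib 3.10.9 drew the plots. In the fits a gene stands with its tested probeset of highest mean. In the marker means and marker correlations it stands with its probeset of highest mean among all with values. Named were all member probesets, list genes past the threshold, a set of 17 bile acid genes whatever their p, and the 5 most alike and 3 most opposed genes. The scripts were tested on simulated data. Members and lists were chosen with earlier results of these data known. Alternatives were other model terms, the litter-by-sex pair as block, other filters, normalizations and variance settings, marker means as covariates, averaging the probesets of a gene, and dropping single litters or single pigs. Pigs are separate animals, and their number limits the precision.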

Additional observations from a re-analysis of the deposited data

Results flagged for a closer look

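Of 28 groups of pigs (the RFI groups and the litters of each member probeset) 2 held a value far from the rest by Dixon's criterion, which chance meets in about 1 of 20 groups. Among the low RFI pigs, SLC10A2 probeset 2 measured 8.86 in replicate 5, the female of sow 1406. Its probeset 1 value was also the lowest but did not meet the criterion. In the litter of sow 1406, FABP6 measured 13.08 in high RFI replicate 2, a female, while the other 3 pigs lay between 13.35 and 13.39. No interaction of RFI with sex or litter passed for a member.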

How the results depend on the processing

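Over 42 alternatives each, the RFI differences of FABP6 and SLC10A2 probeset 1 kept their sign and stayed above the threshold of p. Leaving out 1 pig at a time gave 0.04 to 0.10 for FABP6 (p from 0.262 to 0.645) and -0.24 to -0.00 for SLC10A2 (p from 0.150 to 0.985). The other settings gave 0.01 (without the litter of sow 1411) to 0.15 (without that of 1417, p = 0.108) for FABP6, including 0.03 after renewed quantile normalization, and -0.18 to -0.00 for SLC10A2. Blocking on the pairs of a litter and sex, the differences were 0.07 (p = 0.471) for FABP6, -0.13 (p = 0.466) for SLC10A2 and 0.07 (p = 0.774) for NR0B2, so the block changed no call. The deviations of paired pigs correlated at a median of 0.0836, over 0.1 in 4 of 10 pairs.

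NR0B2 ranged from -0.08 to 0.19 with 1 pig left out and turned negative in 3 cases, without low RFI replicate 7 (-0.077), high RFI replicate 7 (-0.04) and low RFI replicate 10 (-0.00058). SLC10A2 probeset 2 ranged from -0.32 to 0.03 and turned positive without low RFI replicate 5 (0.026). The litter F of SLC10A2 ranged from 1.93 to 4.83 with 1 pig left out, passing without low RFI replicate 2, and was 3.65 (p = 0.0249) with the enterocyte mean as covariate, 1.59 (p = 0.222) with the smooth muscle mean and 1.54 (p = 0.243) without the litter of 1417. For FABP6 that F lay between 0.0759 and 0.680. The r of SLC10A2 with NR0B2 was -0.10 with litter means taken out and -0.016 with the enterocyte mean taken out. With 1 probeset per gene the median rank was 3 for FABP6 and 6108.5 for NR0B2, because fewer rows were ranked. For the rest the cause was not tested. The slaughter batch could not be fitted, and signal over background is not analysed here.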
